A study of Mus musculus with 15 samples.

Results

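The transcripts of Flt3, Kit, Csf1r, Csf2rb, Csf2rb2, Csf2ra, Il3ra, Csf3r and Epor were followed across 15 mouse bone marrow samples. These 9 genes encode receptors through which blood-forming cells receive growth and differentiation signals. They were chosen by name, and all 9 were found among the 38315 genes of the deposited table. Every one of the 9 passed the filter on low values, and 18941 genes did so in all. The samples were AML marrow of genotype NUP98-NSD1/FLT3-ITD (n = 7), wild-type whole marrow (n = 4) and wild-type lineage-negative marrow (n = 4), meaning marrow depleted of cells with antigens of mature lineages. NUP98-NSD1 fuses a nuclear pore gene with that of a histone methyltransferase. FLT3-ITD is an internal tandem duplication that activates the FLT3 receptor. The study compared the leukaemic marrow with each of the wild-type marrows. Age, strain, the promoters that drive the 2 alleles, and whether FLT3-ITD sits in the mouse gene or in an added human gene are not given in the sources used here. Reads of a changed mouse allele would be counted under Flt3. The replicate numbers are not stated to mark separate litters or days, and the labels do not say which wild-type samples came from separate mice. The p-values then measure the spread between these samples alone, part of which may be technical.

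As background, FLT3, KIT and the CSF1 receptor belong to one family of receptor tyrosine kinases, which dimerise when bound by FLT3 ligand, stem cell factor or CSF1. KIT is borne by stem cells, early progenitors and mast cells, FLT3 by multipotent, lymphoid and dendritic progenitors, and the CSF1 receptor by monocytes and macrophages. The receptors for GM-CSF and IL-3 have no kinase of their own: a ligand-specific alpha chain (Csf2ra, Il3ra) joins a common beta chain (Csf2rb), which recruits JAK2. Mice carry an additional beta chain gene, Csf2rb2, whose product pairs with the IL-3 alpha chain. The G-CSF receptor (Csf3r) serves neutrophil production, and the erythropoietin receptor (Epor) serves red cell production.

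Promoter sequences are shown for 5 of the genes, chosen because they carry the contrasts reported here: Flt3 and Kit, which differed in AML within one receptor family, Csf2ra and Csf3r, which separated AML from lineage-negative marrow, and Epor, which was nearly absent from AML. RefSeq promoter windows (GRCm38.p6) were matched for 7 of the 9 genes. Each line holds the 250 bases before the annotated start, 5′ to 3′ on the strand of the gene, and capitals mark motif matches. The windows lie at chr5:147400490-147400739 (minus strand, Flt3), chr5:75574737-75574986 (plus strand, Kit, the first of 2 windows), chr19:61228419-61228668 (minus strand, Csf2ra), chr4:126024409-126024658 (plus strand, Csf3r) and chr9:21963577-21963826 (minus strand, Epor).
Flt3: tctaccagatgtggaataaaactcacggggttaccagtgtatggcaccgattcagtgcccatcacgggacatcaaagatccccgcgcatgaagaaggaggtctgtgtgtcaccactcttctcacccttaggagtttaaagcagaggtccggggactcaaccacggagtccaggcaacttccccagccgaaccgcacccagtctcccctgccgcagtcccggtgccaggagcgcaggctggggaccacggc
Kit: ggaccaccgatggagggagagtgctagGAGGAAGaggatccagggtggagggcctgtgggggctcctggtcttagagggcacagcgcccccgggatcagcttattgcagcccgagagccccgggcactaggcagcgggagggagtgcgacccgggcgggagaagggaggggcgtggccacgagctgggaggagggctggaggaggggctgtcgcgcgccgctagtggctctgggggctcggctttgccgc
Csf2ra: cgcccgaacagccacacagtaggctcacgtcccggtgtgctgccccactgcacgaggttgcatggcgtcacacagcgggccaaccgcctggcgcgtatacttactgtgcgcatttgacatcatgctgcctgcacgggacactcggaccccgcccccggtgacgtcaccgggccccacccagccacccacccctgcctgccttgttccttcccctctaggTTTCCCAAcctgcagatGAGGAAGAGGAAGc
Csf3r: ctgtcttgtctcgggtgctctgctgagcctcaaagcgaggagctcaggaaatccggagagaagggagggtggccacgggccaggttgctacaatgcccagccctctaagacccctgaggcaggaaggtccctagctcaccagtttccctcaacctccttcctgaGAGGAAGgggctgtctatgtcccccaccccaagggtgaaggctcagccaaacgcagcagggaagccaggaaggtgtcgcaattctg
Epor: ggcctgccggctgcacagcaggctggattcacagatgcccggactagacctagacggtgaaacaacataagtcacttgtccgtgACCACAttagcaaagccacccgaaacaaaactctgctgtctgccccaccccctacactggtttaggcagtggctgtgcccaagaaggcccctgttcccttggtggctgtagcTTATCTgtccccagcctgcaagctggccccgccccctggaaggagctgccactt
Motifs of 5 factor families were searched on both strands. The PU.1/ETS letters GAGGAAG occurred in 10.6% of all 32851 RefSeq windows, the GATA letters AGATAA in 9.99%, the RUNX letters TGTGGT in 14.0%, the C/EBP letters TTNNGNAA in 36.8% and the STAT5 letters TTCNNNGAA in 7.02%. The Csf2ra window held 2 copies of GAGGAAG, at 14 to 8 and 8 to 2 bases before the start, which share 1 base. It also held a C/EBP match on the opposite strand at 31 to 24. The Csf3r window held GAGGAAG at 86 to 80 bases and the Kit window at 223 to 217 bases before the start. The Epor window held the GATA letters at 54 to 49 bases and the RUNX letters at 166 to 161 bases, both on the opposite strand. Among the windows not printed, that of Csf2rb2 held PU.1/ETS and STAT5 letters and that of Il3ra a C/EBP match. The Flt3 window held none of the 5 motifs. These matches are letters in a window, and no binding was measured in these samples.

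Values are normalized counts, that is, read counts divided by a scaling factor for each library. The estimated depth was 20.3 to 35.1 M reads (M, mega) in AML, 11.4 to 17.2 in whole marrow and 20.3 to 28.1 in lineage-negative marrow. The deposited scaling placed whole marrow low: the median log2 difference over all genes was 0.67 for AML minus whole marrow, against 0.02 for AML minus lineage-negative marrow. After scaling by the trimmed mean of M values (TMM), these medians were −0.01 and 0.03. The log2 differences of the 9 receptors to whole marrow are therefore given under both scalings. Fold changes, marker sums and values of single genes of other lists are at the deposited scaling unless TMM is named. Whole marrow replicate 1 had the lowest value of its group for 9 of 9 receptors under the deposited scaling and for 5 of 9 with TMM. Lineage-negative replicate 1 had the highest value for 6 of 9 under either scaling, and it also had the highest summed neutrophil markers of its group (13433, lowest 627). Against whole marrow, the lineage-negative label went with 6 of 6 neutrophil, 6 of 6 B-cell, 5 of 6 T and NK cell and 5 of 6 erythroid markers called lower and 5 of 6 progenitor markers called higher (4 with TMM). Fewer were called lower among monocyte and macrophage (2 of 6), dendritic (1 of 6) and eosinophil markers (3 of 6), or 4, 2 and 4 with TMM. All 6 mast cell and basophil markers were called higher (5 with TMM). Of all genes, 33.1% were called higher and 17.2% lower, or 11% and 24.8% with TMM. Leaving out lineage-negative replicate 1 together with AML replicate 6, the lowest AML library for Flt3 and Csf1r, changed no receptor call. In bulk samples, fewer cells of a type and less RNA per cell cannot be told apart.

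A gene was called where limma's adjusted p over all genes was under 0.05 and the log2 difference was at least 1 in size. In AML against whole marrow, 6 of 9 receptors rose (Flt3, Csf1r, Csf2rb, Csf2rb2, Csf2ra and Il3ra) and Epor fell, where 27.3% of all genes were called higher and 11.3% lower. With TMM, Flt3, Csf1r, Csf2rb2 and Il3ra were called higher and Epor and Csf3r lower, against a background of 4.73% higher and 16% lower. Against lineage-negative marrow, 5 of 9 rose in AML (Csf1r, Csf2rb, Csf2rb2, Csf2ra and Csf3r), and Kit and Epor fell. The background there was 17.7% higher and 12.5% lower, and with TMM the same 7 calls stood beside 17.6% and 12.4%. Between the wild-type groups, Flt3, Kit and Il3ra were higher in lineage-negative marrow and Csf2ra and Csf3r lower, the same 5 calls under both scalings. Backgrounds for that comparison were 33.1% higher and 17.2% lower, or 11% and 24.8% with TMM. The median log2 difference of the 9 receptors was 1.34 in AML against whole marrow (0.64 with TMM), 1.38 against lineage-negative marrow and 0.48 between the wild-type groups (−0.22 with TMM). Over all genes these medians were 0.67 (−0.01 with TMM), 0.02 and 0.59 (−0.09 with TMM). The 2 AML comparisons share the AML libraries and are not independent.

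**Figure D1:**
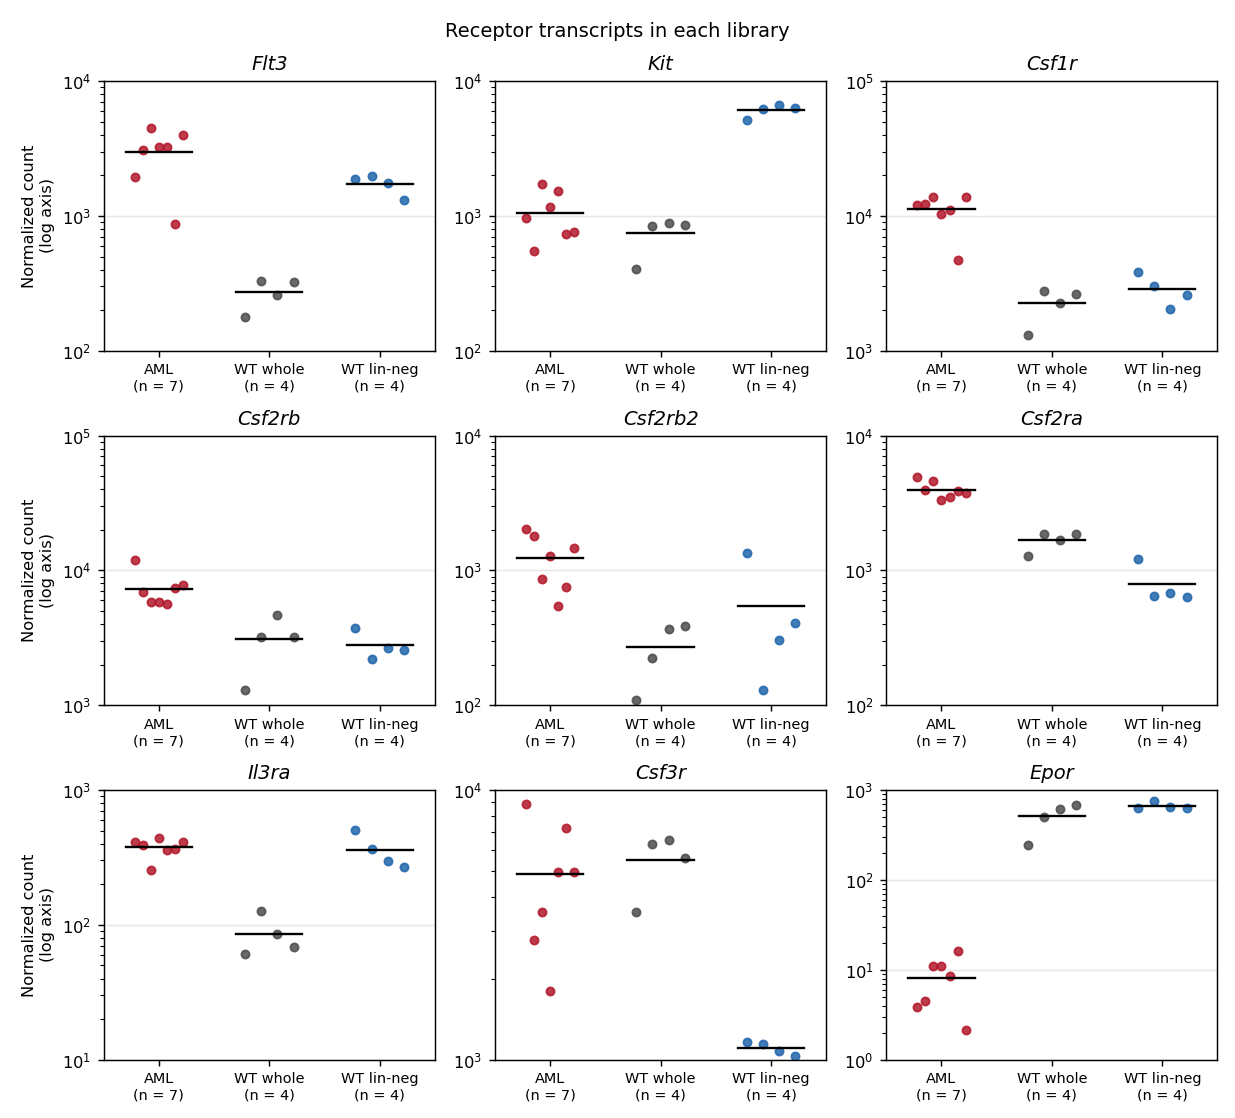
Normalized counts (log axis, each panel with its own range) of the 9 receptor genes in AML, wild-type whole (WT whole) and wild-type lineage-negative (WT lin-neg) marrow; each point is a library and each bar a group mean. All 7 AML points lie above all 4 whole marrow points for Flt3 and Csf1r, and all 7 lie below both wild-type groups for Epor.

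Flt3 (ENSMUSG00000042817, chromosome 5, 147267551 to 147337299 in the table) was 10.9-fold higher in AML than in whole marrow. Its normalized count ran from 870.0 over a median of 3218 to 4484 in AML. The 4 whole marrow libraries held 178, 329.6, 259.8 and 326, and the lineage-negative ones 1863, 1985, 1747 and 1318. Every AML library thus lay above every whole marrow library, while 5 of 7 lay above all lineage-negative libraries and 1, replicate 6, lay below them. The log2 difference to whole marrow was 3.33 (SE 0.33, limma adjusted p = 3.41e-07), and 2.63 with TMM. Relative to lineage-negative marrow the difference of 0.65 (SE 0.33, adjusted p = 0.119) was not called. Without AML replicate 6 that difference was 0.92 with an adjusted p of 0.0030, still under the minimum size of 1. Lineage-negative marrow exceeded whole marrow by 2.68 (SE 0.37, adjusted p = 5.49e-06), and by 1.98 with TMM, in 4 of 4 libraries. Within AML, the SD of Flt3 on the log2 scale was 0.81, where the median gene had 0.41. The 6 dendritic cell markers summed to 1658 to 13984 in AML, 953 to 1478 in whole marrow and 791 to 1183 in lineage-negative marrow. The sum thus stood high in AML, as Flt3 did, but was not raised in lineage-negative marrow, where Flt3 was 6.32-fold above whole marrow (3.99-fold with TMM). AML replicate 6 had the lowest and replicate 3 the highest value both for this sum and for Flt3. Of the 6 dendritic markers, 5 were called higher than in whole marrow (4 with TMM) and 6 higher than in lineage-negative marrow, and none was at 0 throughout a group. Their part in the AML difference of Flt3 was not tested.

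Kit (ENSMUSG00000005672, chromosome 5, 75735576 to 75817382), the stem cell factor receptor, was 5.74-fold lower in AML than in lineage-negative marrow. AML libraries ranged from 547 over a median of 959 to 1730.4. Lineage-negative libraries held 5130.2, 6176, 6667 and 6317, and whole marrow libraries 404, 848, 882 and 862. No AML library came near the lineage-negative range, whereas AML and whole marrow overlapped. Kit fell by 2.62 on the log2 scale against lineage-negative marrow (SE 0.28, limma adjusted p = 2.77e-07). The difference to whole marrow was 0.46 (adjusted p = 0.158) and −0.24 with TMM, so its sign turned with the scaling and no call was made. Lineage-negative marrow lay above whole marrow by 3.08 (SE 0.32, adjusted p = 2.52e-07), and by 2.38 with TMM. Progenitor markers summed to 3730.4 to 8689 in AML, 2659 to 4493 in whole marrow and 20277 to 26113 in lineage-negative marrow. Mast cell and basophil markers summed to 222 to 3256, 2895 to 7123 and 24779 to 43775 in the same order. Both marker sums stood highest in the group where Kit stood highest. Of the 6 progenitor markers 4 were called lower and 1 higher in AML than in lineage-negative marrow, and 6 of 6 mast cell and basophil markers were called lower, with none at 0 throughout a group. Gata2 is in both lists. The part of these cells in the Kit difference was not tested.

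The balance of these receptors inside a library does not move with its scaling. The Flt3/Kit ratio of normalized counts was 2.04, 5.63, 2.59, 2.79, 2.12, 1.19 and 5.27 in AML replicates 1 to 7. It was 0.440, 0.389, 0.295 and 0.378 in whole marrow and 0.363, 0.321, 0.262 and 0.209 in lineage-negative marrow. The ratio was above 1 in every AML library and under 1 in all 8 wild-type libraries, as it was per kilobase of exonic sequence. The mean log2 ratio was higher in AML by 2.87 against whole marrow and by 3.27 against lineage-negative marrow. Both had an exact two-sided permutation p of 0.0030 (adjusted p = 0.011 over 15 tests of 5 ratios), the smallest that 330 splits allow. Between the wild-type groups the log2 ratio differed by −0.40 (exact permutation p = 0.143). The wild-type ranges of this ratio overlapped, although both genes were called higher in lineage-negative marrow.

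**Figure D2:**
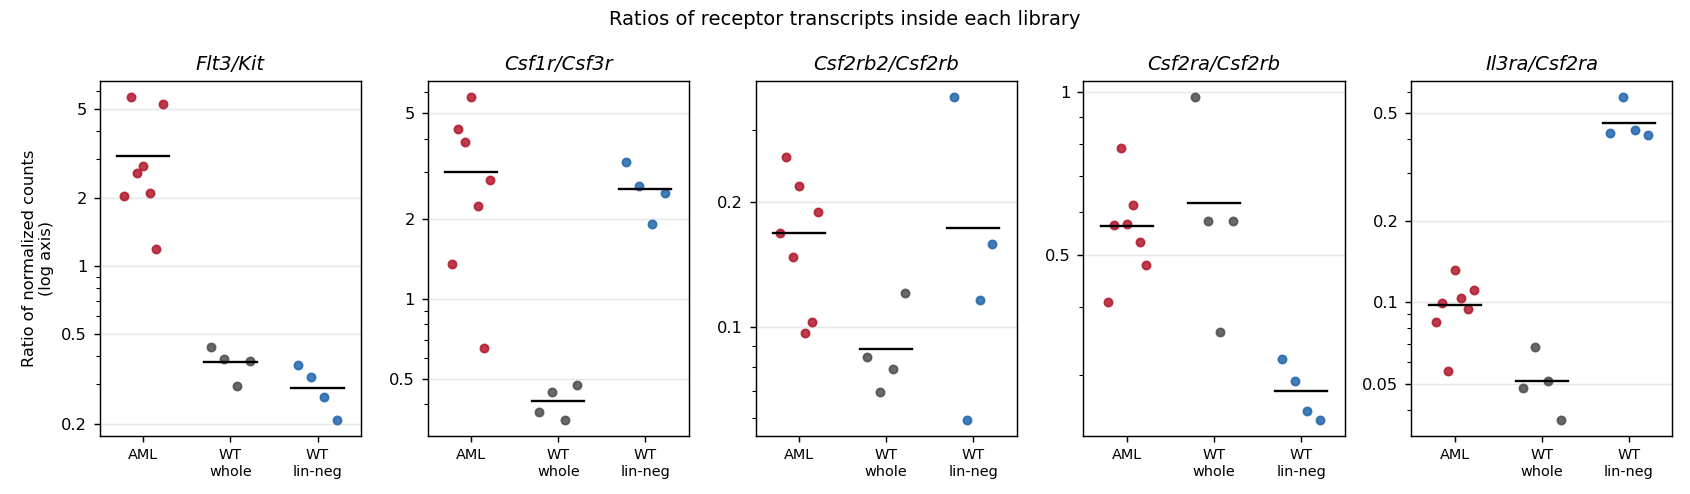
Ratio of normalized counts of 2 receptor genes inside each library (log axis, each panel with its own range) for AML, wild-type whole and wild-type lineage-negative marrow (lin-neg); points are libraries and bars group means. The Flt3/Kit ratio is 1.19 to 5.63 in AML and at most 0.440 in the wild-type libraries.

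Csf1r (ENSMUSG00000024621, chromosome 18, 61233670 to 61265221), which binds CSF1 and IL-34, was 4.94-fold higher in AML than in whole marrow and 3.88-fold higher than in lineage-negative marrow. In AML it ran from 4703 over a median of 12084 to 13926. Whole marrow libraries had 1319, 2799, 2281 and 2647 and lineage-negative libraries 3843, 3041, 2051 and 2588. AML lay above both wild-type groups in 7 of 7 libraries, and 6 of the 7 stood at 10391 or above, with replicate 6 apart from them. The log2 difference was 2.29 (SE 0.28, limma adjusted p = 2.95e-06) to whole marrow, 1.59 with TMM, and 1.92 (SE 0.28, adjusted p = 1.19e-05) to lineage-negative marrow. Between the wild-type groups it was 0.37, or −0.33 with TMM, and not called. The summed monocyte and macrophage markers also stood highest in AML, at 55362 to 119069. They were 15322 to 33051 in whole marrow and 16573 to 25525 in lineage-negative marrow. Within AML the sum and Csf1r ordered the libraries differently. Replicate 3 had the lowest sum with 13767 of Csf1r, and replicate 6, lowest for Csf1r, had a sum of 87371. Of these 6 markers 5 were called higher against whole marrow (2 with TMM) and 6 against lineage-negative marrow, and none was at 0 throughout a group. Their part in the Csf1r difference was not tested.

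Csf3r (ENSMUSG00000028859, chromosome 4, 125918343 to 125938233) separated lineage-negative marrow from both other groups. Its normalized count ran from 1805 over a median of 4948 to 8897 in AML. Whole marrow libraries held 3526, 6293, 6509.9 and 5602, and lineage-negative libraries 1168, 1141, 1075 and 1036. All AML libraries exceeded the lineage-negative ones, and they spread across and beyond the whole marrow range. Csf3r was higher in AML than in lineage-negative marrow by 1.97 on the log2 scale (SE 0.32, limma adjusted p = 4.65e-05). Against whole marrow the difference was −0.30 (SE 0.32, adjusted p = 0.416). With TMM it was −1.0 (limma adjusted p = 0.014) and called lower at the very threshold. The highest AML library (7474) then lay within the whole marrow range of 7019 to 8218, and every other AML library (at most 6644) lay below that range. Lineage-negative marrow stood below whole marrow, at −2.27 on the log2 scale (SE 0.36, adjusted p = 2.36e-05), and −2.97 with TMM. Neutrophil markers summed to 305622 to 1106747 in AML and 336259 to 920592 in whole marrow, with 0 of 6 called under either scaling by limma and 0 of 6 at an unadjusted p under 0.05 (1 with TMM, lower in AML). Of all genes, 54.1% were higher and 12.8% lower in AML at that unadjusted p, or 21.5% and 24.8% with TMM. The median log2 difference of the 6 neutrophil markers to whole marrow was −0.21, beside 0.67 for all genes. With TMM it was −0.90 beside −0.01. In lineage-negative marrow the neutrophil sum was 627 to 13433, and 6 of 6 were called higher in AML. None of the 6 was at 0 throughout a group, and their part in the Csf3r values was not tested. The SD of Csf3r on the log2 scale was 0.79 in AML and 0.08 in lineage-negative marrow.

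The Csf1r/Csf3r ratio sets the macrophage growth factor receptor against the neutrophil one. It was 1.36, 4.38, 3.89, 5.76, 2.25, 0.653 and 2.80 in AML replicates 1 to 7. In whole marrow it was 0.374, 0.445, 0.350 and 0.473, and in lineage-negative marrow 3.29, 2.66, 1.91 and 2.497. Every AML ratio exceeded every whole marrow ratio, with a log2 difference of 2.59 (exact permutation p = 0.0061, adjusted p = 0.015). AML spanned the lineage-negative range on both sides, and the log2 difference there was −0.05 (exact permutation p = 0.936). Lineage-negative exceeded whole marrow by 2.64 (exact permutation p = 0.029, the smallest possible with 4 against 4, adjusted p = 0.043). AML replicate 6 had the lowest ratio of its group and still lay above whole marrow.

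Csf2rb (ENSMUSG00000071713, chromosome 15, 78209952 to 78238047), the beta chain shared by the GM-CSF, IL-3 and IL-5 receptors, was 2.63-fold higher in AML than in lineage-negative marrow. Its AML values ran from 5648 over a median of 6928 to 11932. Whole marrow had 1302, 3223, 4635 and 3212, and lineage-negative marrow 3752, 2194, 2637 and 2574. AML did not overlap either wild-type group at the deposited scaling, and AML replicate 1 stood well above the other 6. The log2 difference was 1.38 to lineage-negative marrow (SE 0.28, limma adjusted p = 0.00044) and 1.34 to whole marrow (SE 0.28, adjusted p = 0.00044). Against whole marrow the call was not kept with TMM, where the difference was 0.64 and the ranges overlapped (4689 to 10025 in AML, 2780.3 to 5852 in whole marrow). It was also lost without whole marrow replicate 1, at 0.97 (adjusted p = 0.0018). Between the wild-type groups (lineage-negative minus whole) Csf2rb differed by −0.04 (adjusted p = 0.919), and by −0.74 with TMM (adjusted p = 0.015), which is under the size threshold.

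Csf2rb2 (ENSMUSG00000071714, chromosome 15, 78166707 to 78189921), the IL-3-specific beta chain gene next to Csf2rb, was 4.58-fold higher in AML than in whole marrow. It ran from 545 over a median of 1284 to 2014 in AML, where whole marrow libraries held 109.7, 224, 367 and 387. All 7 AML libraries lay above whole marrow, by 2.22 on the log2 scale (SE 0.48, limma adjusted p = 0.00063), and 1.52 with TMM. Lineage-negative libraries held 1349, 131, 306 and 409, so replicate 1 alone reached the AML range. The log2 SD there was 1.39, and 96.8% of genes had a smaller one. AML exceeded lineage-negative marrow by 1.55 (SE 0.48, adjusted p = 0.013), though 3 of its 7 libraries lay above all 4 of the other group. It was not called without lineage-negative replicate 2 (1.03, adjusted p = 0.083) and was 2.15 without replicate 1. Lineage-negative minus whole marrow gave 0.66 (adjusted p = 0.295), or −0.03 with TMM, and was not called. The Csf2rb2/Csf2rb ratio was 0.0965 to 0.258 in AML and 0.0694 to 0.121 in whole marrow, a log2 difference of 0.88 (exact permutation p = 0.024, adjusted p = 0.043). Without single libraries the adjusted p of that ratio rose to as much as 0.1. The coding sequences of these neighbours are closely similar, so their split of reads depends on the authors' counting and is uncertain.

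Csf2ra (ENSMUSG00000059326, chromosome 19, 61212395 to 61216867), the GM-CSF-specific alpha chain, was 5.02-fold higher in AML than in lineage-negative marrow. AML ran from 3335 over a median of 3883 to 4888. Lineage-negative libraries held 1205, 642, 680.4 and 639, and whole marrow libraries 1273, 1861, 1673 and 1856. The 3 groups did not overlap, and lineage-negative replicate 1 came closest to the lowest whole marrow library. The AML difference was 2.37 on the log2 scale to lineage-negative marrow (SE 0.19, limma adjusted p = 6.45e-09) and 1.26 to whole marrow (SE 0.19, adjusted p = 2.57e-05). With TMM the latter was 0.56 (adjusted p = 0.013), under the size threshold, although AML (2895 to 4199) still lay above whole marrow (2112 to 2717). From whole to lineage-negative marrow Csf2ra changed by −1.11 (SE 0.22, adjusted p = 0.00018), and by −1.81 with TMM. Csf2ra was among the steadier of the receptors in AML, with a log2 SD of 0.20 against 0.41 for the median gene. Relative to the beta chain, the Csf2ra/Csf2rb ratio spanned 0.410 to 0.789 in AML but 0.248 to 0.321 in lineage-negative marrow, a log2 difference of 0.99 (exact permutation p = 0.0030, adjusted p = 0.011, 7 of 7 AML libraries above). Against whole marrow that ratio differed by −0.08 (exact permutation p = 0.767).

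Il3ra (ENSMUSG00000068758, chromosome 14, 8113752 to 8123488), the IL-3-specific alpha chain, was 4.41-fold higher in AML than in whole marrow, and its difference to lineage-negative marrow lay within the spread. AML ran from 256 over a median of 391 to 439. Whole marrow libraries held 61.0, 127, 85.6 and 68.2, and lineage-negative libraries 509, 368, 295 and 266. AML and whole marrow did not overlap, and AML fell inside the lineage-negative range in 6 of 7 libraries. The log2 difference was 2.17 to whole marrow (SE 0.23, limma adjusted p = 8.50e-07), 1.48 with TMM, and 0.10 to lineage-negative marrow (SE 0.23, adjusted p = 0.758). Lineage-negative marrow exceeded whole marrow in Il3ra by 2.07 (SE 0.26, adjusted p = 2.19e-06), and by 1.38 with TMM. The 2 alpha chains thus ordered the groups differently. The Il3ra/Csf2ra ratio was 0.0558 to 0.132 in AML, 0.0368 to 0.0684 in whole marrow and 0.417 to 0.573 in lineage-negative marrow. AML was lower than lineage-negative marrow by a log2 difference of −2.27 (exact permutation p = 0.0030, adjusted p = 0.011) and higher than whole marrow by 0.91 (exact permutation p = 0.0061, adjusted p = 0.015, 6 of 7 above all).

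Epor (ENSMUSG00000006235, chromosome 9, 21870193 to 21874802), the erythropoietin receptor, was 62.3-fold lower in AML than in whole marrow (94.5-fold with TMM) and 81.2-fold lower than in lineage-negative marrow. AML replicates 1 to 7 held 3.82, 4.5, 11, 11, 8.49, 16 and 2.16 normalized counts, and 2 of the 7 were at or under the count that 3 reads give. Whole marrow libraries held 244, 496, 613 and 678 and lineage-negative libraries 637, 746, 639.9 and 623. No AML library approached either wild-type group. Epor fell by 5.91 on the log2 scale against whole marrow (SE 0.40, limma adjusted p = 3.28e-09), with −6.57 under TMM, and fell by 6.38 against lineage-negative marrow (SE 0.40, adjusted p = 2.60e-10). Between the wild-type groups the difference was 0.48, or −0.22 with TMM, and not called. The sum of the erythroid markers was 303 to 22179 in AML, 574597 to 1399909.7 in whole marrow and 4507 to 33209 in lineage-negative marrow. AML and lineage-negative marrow overlapped in that sum while differing in Epor in every library. All 6 erythroid markers were called lower than in whole marrow and 2 of 6 lower than in lineage-negative marrow, and none was at 0 throughout a group. Their part in the Epor difference was not tested.

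**Figure D3:**
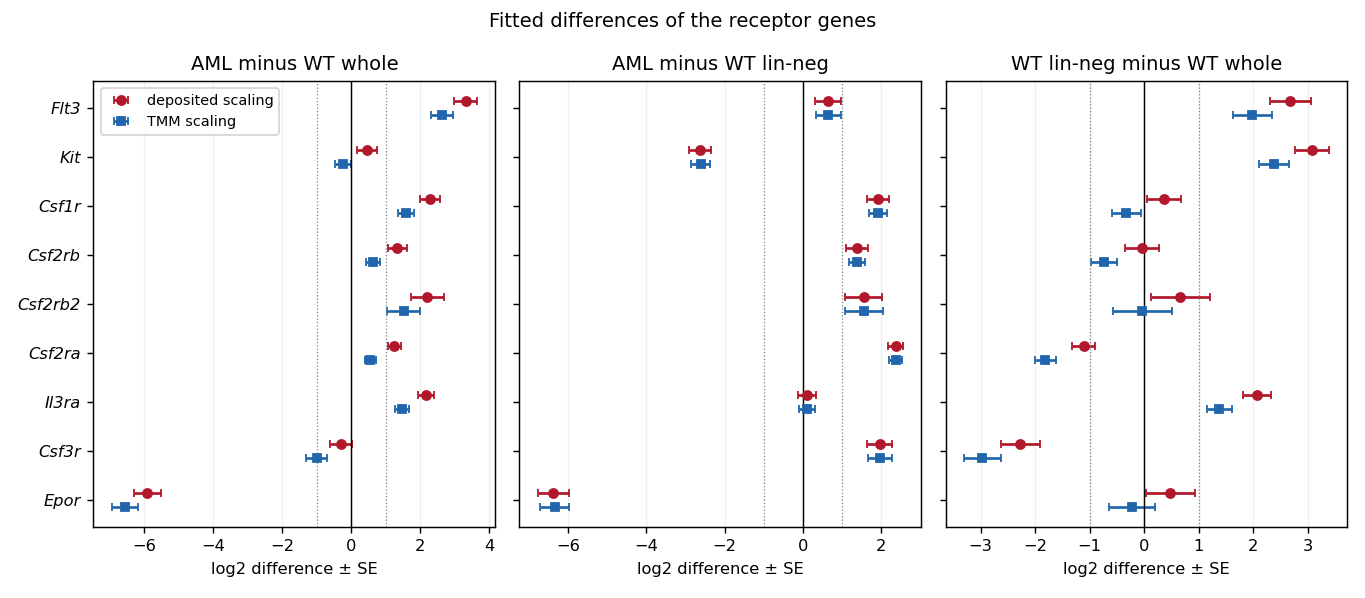
Fitted log2 differences of the 9 receptors in the 3 comparisons (bars are standard errors from limma), with the deposited scaling as circles and TMM as squares; dotted lines mark a difference of 1. Rescaling shifts the comparisons with whole marrow, such as Flt3 from 3.33 to 2.63, and leaves AML against lineage-negative marrow nearly in place.

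Levels of different receptors were compared per kilobase of exonic sequence. In AML the order of mean normalized counts per kilobase was Csf1r (1935 ± 542, SD), Csf2ra (1385 ± 198), Csf3r (1352 ± 689.8), Csf2rb (1007 ± 301), Flt3 (482 ± 197), Csf2rb2 (263 ± 116), Il3ra (127 ± 20.3), Kit (119 ± 49.0) and Epor (4.10 ± 2.49). The ranges of neighbours overlapped except between Csf2rb and Flt3 and between Kit and Epor. In whole marrow the order was Csf3r (1519 ± 377), Csf2ra, Csf2rb, Csf1r, Epor, Kit, Csf2rb2, Flt3 and Il3ra (28.8 ± 10.01). There, Csf3r lay above Csf2ra, and Epor above Kit, without overlap. In lineage-negative marrow Kit came first (681 ± 74.2), followed by Csf1r, Csf2rb, Epor, Csf3r, Flt3, Csf2ra, Il3ra and Csf2rb2 (116 ± 115), and the one gap without overlap was between Csf2ra and Il3ra. By these means each group was headed by another receptor, Csf1r, Csf3r or Kit. Single libraries differed: Csf3r lay above Csf1r in AML replicates 1 and 6, and Csf1r above Kit in lineage-negative replicate 1.

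As a share of the summed level of the 9 genes, Csf1r made up 29.05% ± 7.48 in AML (SD, n = 7), 11.5% ± 1.29 in whole marrow (n = 4) and 16.5% ± 2.61 in lineage-negative marrow (n = 4). Csf3r made up 19.9% ± 9.13, 45.1% ± 2.21 and 10.3% ± 0.85 in the same order. Kit made up 1.82% ± 0.799, 2.45% ± 0.182 and 23.2% ± 4.95. These shares are free of library scaling. Across the 4 whole marrow libraries the Csf3r share ran from 42% to 47.2%, although replicate 1 had the lowest normalized count for every receptor. The Flt3 share was 7.34% ± 3.08 in AML, 1.32% ± 0.175 in whole marrow and 9.38% ± 1.501 in lineage-negative marrow. Epor made up 0.0666% ± 0.0462 of the sum in AML, 7.37% ± 1.45 in whole marrow and 11.2% ± 1.65 in lineage-negative marrow. AML libraries differed most among themselves in the trade of Csf1r for Csf3r, from 14.3% Csf1r in replicate 6 to 34.3% in the highest.

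**Figure D4:**
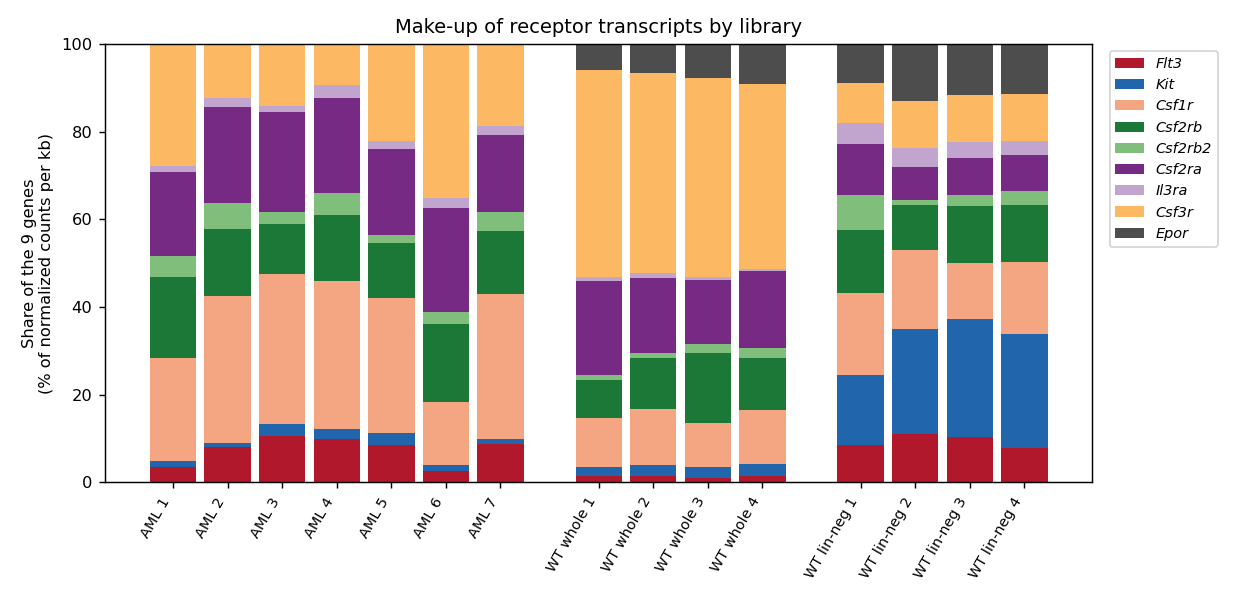
Share of each receptor in the summed level of the 9 genes (percent of normalized counts per kilobase of exonic sequence) in each library; each stacked bar is 1 library and adds to 100. Csf3r takes a mean of 45.1% in whole marrow, Kit 23.2% in lineage-negative marrow and Csf1r 29.05% in AML.

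The genes whose profile was most like each receptor were sought among 10433 genes, by the root mean square (RMS) difference of gene-centred log2 values over the 15 libraries, which include the group differences described above. For Flt3 these were Rasa4 (RMS difference 0.37), Bmyc (0.43) and Tmem176a (0.53), and for Kit Fpgs (0.37), Bend3 (0.40) and Spns2 (0.41). Rasa4 had means of 2493 in AML, 325 in whole marrow and 1691 in lineage-negative marrow. Csf1r was most like Plekho1, Fam234a and Plxnb2 (0.17 to 0.19), Csf2rb like Sbno2, Emilin2 and Il4ra (0.13 to 0.21) and Csf2ra like Snx20, Sema4a and Pitpnm1 (0.18 to 0.21). Il4ra is the alpha chain of the IL-4 receptor. For Il3ra the nearest was Cebpa (0.18), which encodes a myeloid transcription factor, followed by Mfge8 (0.25) and Slc25a4 (0.27). For Csf3r they were Slc2a3 (0.22), Abhd5 (0.27) and C5ar2 (0.29), and for Epor Gata1 (0.46), Aqp1 (0.46) and Tlcd4 (0.58). Gata1 encodes the erythroid GATA factor and Aqp1 a water channel of red cells. For Csf2rb2 they were Ppard (0.52), Irf2 (0.55) and Rassf4 (0.56). Among the receptors themselves the closest pair was Csf2rb and Csf2ra (0.56), while Flt3 and Kit stood 1.63 apart and Flt3 and Il3ra 0.78. These are descriptions over libraries that share their groups, with no test.

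Of 34 other cytokine receptor genes, 19 were called higher and 5 lower in AML than in whole marrow (10 and 6 with TMM). Of all genes, 27.3% were called higher and 11.3% lower, or 4.73% and 16% with TMM. The median log2 difference was 1.09 beside 0.67 for all genes, and 0.40 beside −0.01 with TMM. Against lineage-negative marrow 15 were higher and 4 lower, beside 17.7% and 12.5% of all genes, with a median of 0.99 beside 0.02. The counts called lower were near the shares of all genes. The largest rises over whole marrow were in Lifr (2.85), the LIF receptor, Il6st (2.49), which encodes the signalling chain gp130, and Il12rb1 (2.16). Lifr averaged 2040.3 ± 972 normalized counts in AML, 273 ± 94.8 in whole marrow and 79.6 ± 14.4 in lineage-negative marrow, and all 7 AML libraries lay above both. LIFR and gp130 form one receptor, and both genes were called higher in both comparisons and under both scalings. The largest falls were in Il5ra (−3.94), the IL-5 alpha chain and also one of the eosinophil markers, Osmr (−2.21) and Il1rl1 (−2.12), the IL-33 receptor. Eosinophil markers, Il5ra among them, summed to 414 to 1425 in AML and 19340.5 to 43186 in whole marrow, with 6 of 6 called lower, and their part in the Il5ra fall was not tested. Against lineage-negative marrow the largest rises were in Il13ra1 (5.83), Lifr (4.56) and Il9r (3.17), and falls were seen in Il1rl1 (−3.66) and Il5ra (−2.27). Il13ra1 averaged 2051 ± 689.8 in AML, 515 ± 242 in whole marrow and 37.5 ± 22.5 in lineage-negative marrow. Il9r was uneven, from 13.2 to 745 among AML libraries.

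Among 24 genes that carry receptor signals (kinases, STATs, adaptors and lipid kinase subunits), 16 were called higher and 0 lower by limma in AML than in whole marrow, but 2 and 0 with TMM. Of all genes, 27.3% were called higher and 11.3% lower, or 4.73% and 16% with TMM. At an unadjusted p under 0.05, 22 were higher and 0 lower, or 15 and 1 with TMM, beside 54.1% and 12.8% of all genes, or 21.5% and 24.8% with TMM. Jak3 (1.97), the kinase of the gamma chain receptors, and the adaptor Gab2 (1.71) were called under both scalings, and Tyk2 (1.69) under the deposited one. The median of this list was 1.09 beside 0.67 for all genes, and 0.40 beside −0.01 with TMM. Against lineage-negative marrow 11 were called higher and 0 lower under either scaling, beside 17.7% and 12.5% of all genes (17.6% and 12.4% with TMM). Among the 11 were the adaptor Grap (3.50) and the lipid kinase subunit Pik3r5 (2.90). At an unadjusted p under 0.05 and the deposited scaling, 16 were higher and 3 lower, beside 26.2% and 25.1% of all genes. Grap averaged 494 ± 212 in AML, 219 ± 61.2 in whole marrow and 42.7 ± 19.0 in lineage-negative marrow, where all 7 AML libraries lay above.

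Among 17 genes that restrain receptor signals, limma called 13 higher and 0 lower in AML against whole marrow, with a median of 1.20. With TMM it called 1 and 0, with a median of 0.50. Of all genes, 27.3% were called higher and 11.3% lower, or 4.73% and 16% with TMM. The TMM count of 1 higher was near the share of all genes. At an unadjusted p under 0.05, 16 were higher and 0 lower, or 11 and 0 with TMM. The shares of all genes at that unadjusted p were those given for the carriers. The one called under both scalings was Socs2 (3.29, SE 0.42, limma adjusted p = 4.51e-06), a STAT5-induced suppressor of cytokine signalling, followed at the deposited scaling by Cblb (1.56) and Sla (1.55). Socs2 averaged 691 ± 382 normalized counts in AML with a range of 159 to 1291, 59.2 ± 10.4 in whole marrow and 29.7 ± 12.5 in lineage-negative marrow. All 7 AML libraries lay above all 8 wild-type libraries. Against lineage-negative marrow 11 of the 17 were called higher and 0 lower, beside 17.7% and 12.5% of all genes. At an unadjusted p under 0.05, 15 were higher and 0 lower, beside 26.2% and 25.1%. The rises were led by Socs2 (4.33), Sla (2.47) and Ptprc (2.44), which encodes the leukocyte phosphatase CD45.

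**Figure D5:**
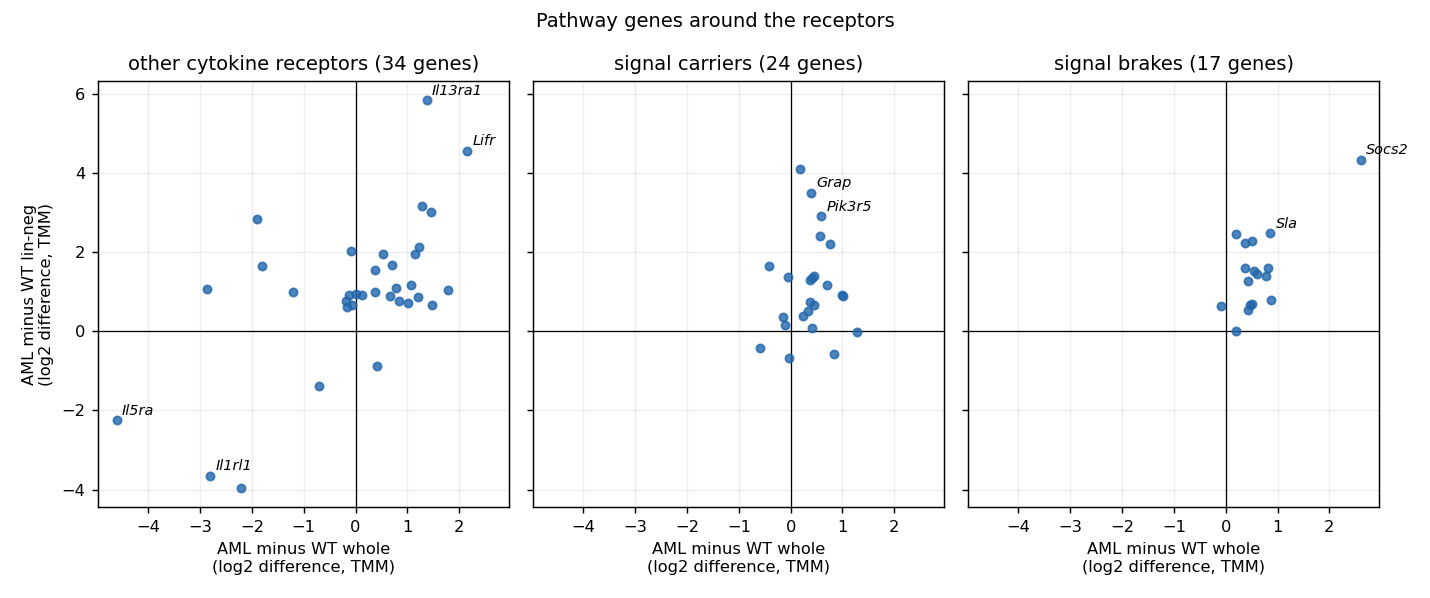
Log2 differences with TMM scaling of other cytokine receptors, signal carriers and signal brakes, each point a gene, with AML minus whole marrow on the horizontal and AML minus lineage-negative marrow on the vertical axis; both axes use the same AML libraries, and some of the genes with large differences are named. Socs2 stands apart among the brakes. On the horizontal axis the carriers have a median of 0.40, with 2 of 24 called higher beside 4.73% of all genes.

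Of 10 ligand genes, 8 were in the table and 3 passed the filter on low values. Flt3l, which encodes FLT3 ligand, averaged 234 ± 64.8 in AML, 106 ± 19.1 in whole marrow and 175 ± 18.9 in lineage-negative marrow. It was called higher than in whole marrow at the deposited scaling (1.10, limma adjusted p = 0.00035) and not with TMM (0.41). Kitl, which encodes stem cell factor, averaged 62.0 ± 28.7, 106 ± 30.1 and 11.3 ± 4.45 in the same order, and Csf1 199.7 ± 74.4, 257 ± 65.0 and 749 ± 258. Neither Kitl nor Csf1 was called against whole marrow at the deposited scaling, but both were called lower in AML with TMM. Of all genes, 11.3% were called lower there, or 16% with TMM. In AML against lineage-negative marrow Kitl was called higher (2.28) while its receptor gene Kit was called lower, and Csf1 was called lower (−1.91) while Csf1r was called higher. Of the remaining genes of the kinase family, Pdgfrb was lower in AML than in lineage-negative marrow (−2.24), and Pdgfra (0.48) was not called. Stromal and endothelial markers summed to 1284 to 3277 in AML, 1334 to 2453 in whole marrow and 2168 to 2952 in lineage-negative marrow. Pecam1, a large part of that sum, averaged 1225, 693 and 2109 in the same order. Of the 6 markers, 4 were called higher and 0 lower in AML than in lineage-negative marrow, beside 17.7% and 12.5% of all genes. Against whole marrow 0 were called, or 1 lower with TMM. Their part in the Kitl difference was not tested.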

How the data were processed

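Bulk RNA sequencing of total RNA (TRIzol extraction, TruSeq Stranded Total RNA libraries, per the labels' protocols) covered 15 samples, grouped by their titles. The deposited values have the unit signal: counts per gene normalized by the authors with DESeq2 size factors of the poscounts kind, per the file's name. The submitters' processing notes name Partek, STAR, DESeq2 and mm10, without versions or roles. Whether counting used strand is not given in the sources used here, so reads of overlapping genes are not separated. Gene starts in the table equal those of a GRCm38 annotation (GENCODE) for 861 of 38066 shared identifiers, while 37557 lengths are equal, so gene positions are printed as in the table, the end being start plus length, with no build assigned.

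Between 80.6% and 87.2% of low values per library were whole multiples of 1 step within a tolerance of 0.02, so whole reads were not recovered and no count model was run. Depth is the library total divided by that step. The floor of 3 reads was 1.96 to 4.09 normalized counts and covers counting error only. Genes with at least 10 in at least 4 samples were kept. Values as log2(value + 1) entered 1 limma fit (limma 3.58.1, R 4.3.3, empirical Bayes with trend, 3 group means, two-sided) with Benjamini-Hochberg adjustment over the 18941 genes kept. Fold changes without the word log2 are ratios of group means. Ratios of receptors were tested by exact two-sided permutation of mean log2 ratios, adjusted over 15 tests. The fit and the TMM scaling (trim 30% of M and 5% of A, written in R) were tested on simulated data. Exonic lengths came from the GRCm38 annotation, and promoters from RefSeq (GRCm38.p6).

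The text names all 9 receptors, up to 3 called genes per direction and pathway list in each AML comparison, and the 3 genes most like each receptor with a mean of at least 100. Some results under this rule are not reported here. Members, lists and ratios were chosen with earlier results of these data known. Alternatives were pseudocounts of 0.1 and 5, no filter, a mean of at least 50, TMM, fits of 2 groups alone, the replicate number as a block, and leaving out each library. Leaving out AML replicate 6 and lineage-negative replicate 1 together was added after seeing the data.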

Additional observations from a re-analysis of the deposited data

Results flagged for a closer look

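In 42 groups of values (9 receptors and 5 ratios in 3 groups), 7 had a single library whose gap to the nearest other exceeded Dixon's 95% critical value, where chance gives about 1 in 20. AML replicate 6 had 4703 normalized counts of Csf1r, where the other 6 AML libraries had 10391 to 13926. AML replicate 1 had 11932 of Csf2rb, where the others had 5648 to 7763. Lineage-negative replicate 1 had 1205 of Csf2ra, where the others had 639 to 680.4. These 3 stood apart with TMM scaling too. Whole marrow replicate 1 had 404 of Kit (others 848 to 882), AML replicate 3 had 256 of Il3ra (others 361 to 439) and lineage-negative replicate 2 had 746 of Epor (others 623 to 639.9), and these 3 did not stand apart with TMM. The log2 ratio of Il3ra to Csf2ra was −0.80 in lineage-negative replicate 2, above the other 3 of its group.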

How the results depend on the processing

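Of 27 receptor differences, 17 kept their direction and their side of the threshold under all 23 alternatives. With TMM scaling, 2 receptors instead of 1 fell against whole marrow: Csf3r joined Epor at −1.0. Csf2rb (0.64) and Csf2ra (0.56) lost that call. Differences that were not called changed sign: Kit in AML against whole marrow became −0.24, and between lineage-negative and whole marrow Csf1r became −0.33, Csf2rb2 −0.034 and Epor −0.22. Pseudocounts, filters, fits of 2 groups alone and the 2-library removal changed no receptor's direction or call. Leaving out each library gave 5 to 6 receptors higher than in whole marrow and 4 to 5 higher than in lineage-negative marrow. It moved Csf2rb between lineage-negative and whole marrow from −0.41 to 0.20 and Il3ra between AML and lineage-negative marrow from −0.032 to 0.28. Among ratios, Csf1r/Csf3r against lineage-negative marrow ranged from −0.25 to 0.27, Csf2ra/Csf2rb in AML against whole marrow from −0.31 to 0.17 and Csf2rb2/Csf2rb against lineage-negative marrow from −0.24 to 0.62. Csf2rb2/Csf2rb in AML against whole marrow ranged from 0.77 to 1.04 and Csf2ra/Csf2rb between lineage-negative and whole marrow from −1.30 to −0.83, and both lost their call in some removals, where fewer splits are possible. With replicate number as a block, the receptors called stayed at 6 higher and 1 lower, 5 and 2, and 3 and 2, with Flt3 at 3.52 against whole marrow; AML replicates 5 to 7 have no partner and add nothing to that fit. Deviations of same-numbered samples correlated at −0.29 to 0.17, and 7 of 24 matches were best with their own number, which gave no sign of pairing. With 4 samples in each wild-type group, this check cannot exclude that same-numbered samples share a mouse, litter or day. Whole marrow is the shallowest group, and Epor in AML is near the depth limit.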
